A study of Sus scrofa with 8 samples.

Results

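The genes described here encode the machinery that moves, tethers and fuses membrane vesicles. They were chosen by their symbols, which start with SYT (synaptotagmins), STX (syntaxins), VAMP, SNAP or RAB followed by a digit, NSF, UNC13, RIMS, EXOC (exocyst), SCAMP, CPLX (complexins), SNX (sorting nexins) or VPS. Each gene was read by 1 probe set, the one with the highest mean log2 intensity over all arrays. The rule found 95 of the 6765 genes with a symbol of their own, and 94 of these were among the 6540 genes bright enough to be tested. The remaining one, SYT2, did not reach the 20th percentile of any array. The rule reads symbols and brightness and uses no difference between ages.

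Islets came from 4 male Duroc/Large White cross piglets of 3 days of age and 4 of 7 days. By the publication's general protocol, islets of both ages were freed from the pancreas by collagenase and cultured for 7 days. Its array methods do not state when RNA was taken. RNA was amplified, with an extra round for samples of low yield that the sources used here do not name, and each pig's sample was hybridised unpooled to its own Affymetrix porcine GeneChip. These are normal crossbred animals with no transgene, and an islet preparation at this age still holds duct, acinar and stromal cells beside the endocrine ones. A probe set is a small collection of oligonucleotides against the same transcript, whose brightness is condensed into a single intensity, and a gene can have several.

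Endocrine cells store peptide hormones in dense-core granules and release them by regulated exocytosis. A granule is carried to the plasma membrane and held there by Rab GTPases and tethering proteins. Priming factors of the UNC13 family then prepare the SNARE proteins, which pull both membranes together, and synaptotagmins trigger fusion when calcium enters. Other members serve routes that every cell uses, from the Golgi to endosomes and lysosomes.

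The first principal component of the log2 intensities, with 26.2% of the variance, separated the 2 labels. The arrays of 7-day-old replicates 3 and 4 lay at opposite ends of the second component (-68.5 and 39.8, with the other 6 arrays between -24.4 and 17.9). Array medians were between 171.6 and 178.5, and precision is limited by there being 4 arrays per label. Endocrine identity was borne out by INS, GCG, SST and PPY, all measured in every array, whereas IAPP did not reach the 20th percentile in any.

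Each difference below is the mean log2 intensity of the 7-day-old arrays less that of the 3-day-old arrays, tested by limma and adjusted by the Benjamini-Hochberg method over all 21574 probe sets tested, with 0.05 as the threshold. The direction follows the deposited labels and is opposite to the one given in the publication. Of the 14 array genes that the publication's main tables list as up- or down-regulated, 11 were found by symbol. All 11 differed the other way, each read by its probe set with the lowest adjusted p. Other genes named in the publication's text or supplementary lists were not compared here. Whether either set of labels is exchanged was not tested, so every "higher" or "lower" below would turn with the labels.

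Of the 94 trafficking genes tested, 6 were higher and 6 were lower in islets labelled 7-day-old. The higher genes were RAB26, SNAP25, RAB3A, SNX14, SYT5 and RAB3IP, and the lower ones SYT1, STX11, UNC13D, VPS33A, VPS18 and STX4. The share called, 12.8%, was near the 12.2% of all genes tested (5.03% higher and 7.16% lower), so the count is not a result about trafficking genes as a class. Arrays of the 2 labels did not overlap for 22 of the 94 genes (23.4%), 11 in each direction, against 24.7% of all genes. Their median log2 difference was 0.00, beside -0.02 for all genes, and 55 of them (58.5%) lay within 0.2 of 0, compared with 48.1% of all genes. The spread between pigs was small, with a median SD of 0.13 log2 units among 3-day-old arrays and 0.14 among 7-day-old arrays, and 0.17 for all genes in both. In whole islets, fewer cells of a type and less RNA per cell cannot be told apart.

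**Figure D1:**
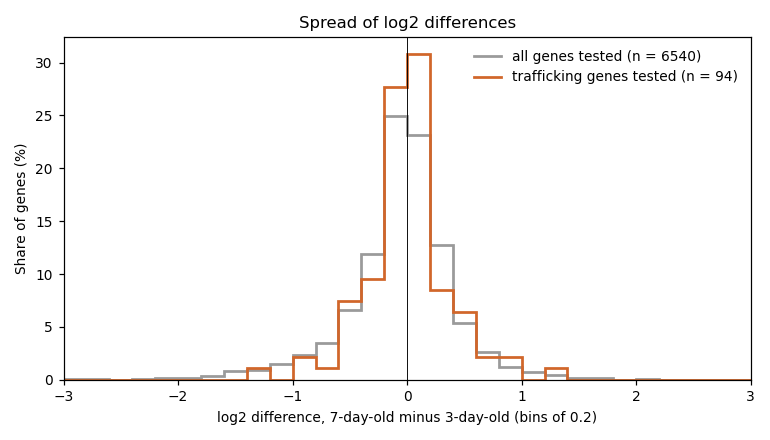
Share of genes in percent (vertical axis) by log2 difference, 7-day-old minus 3-day-old (horizontal axis, bins of 0.2), for the 94 trafficking genes tested (orange line) and all 6540 genes tested (grey line). The trafficking genes pile up near 0, with 58.5% within 0.2 of it, and reach from -1.25 to 1.23.

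Among the SNARE proteins, which form the bundle that fuses vesicle and target membrane, SNAP25 was higher and STX11 and STX4 were lower in islets labelled 7-day-old. The other 13 of 16 did not pass the test, and the median log2 difference of all 16 was -0.05. The share called was 18.8%, against 12.2% of all genes tested. SNAP25 lies on the plasma membrane and joins syntaxin 1 and VAMP2 in the complex that fuses insulin granules and synaptic vesicles. Its intensity was 2380, 3505, 2859 and 3351 in the 3-day-old arrays and 6028, 5734, 5135 and 6009 in the 7-day-old arrays. All 7-day-old arrays lay well above the brightest 3-day-old one. The means were 3024 ± 510 and 5726 ± 417 (SD, n = 4 each), a 1.91-fold difference on the log2 mean (0.93 ± 0.14 SE, adjusted p = 0.0097).

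STX11, a syntaxin known for the release of cytotoxic granules by lymphocytes, moved the other way. Its intensity was 544, 393, 486 and 427 in the 3-day-old arrays and 272, 270, 290 and 217 in the 7-day-old arrays, with no overlap. It was 1.76-fold lower in the latter (-0.82 ± 0.14, adjusted p = 0.0146). STX4, a plasma membrane syntaxin of many cell types that also takes part in insulin granule fusion, read 598, 521, 599 and 614 against 427, 454, 426 and 486. The groups did not overlap, though the gap between 521 and 486 was narrow, and the difference was -0.38 ± 0.09 (adjusted p = 0.0403). STX4 lost its call in each of the 8 analyses that left out 1 array (adjusted p up to 0.101), and its second, dimmer probe set gave -0.13.

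The vesicle SNAREs did not pass the test. VAMP2, the partner of SNAP25 on insulin granules, read 597, 774, 392 and 611 in the 3-day-old arrays and 605, 684, 585 and 616 in the 7-day-old arrays, and the 95% confidence interval of its log2 difference ran from -0.35 to 0.57. The 3-day-old arrays spread far more than the 7-day-old ones, which all fell inside their range. VAMP8, found on granules and endosomes, had an interval of -0.19 to 0.15, and VAMP3, a widely expressed endosomal member, one of -0.37 to 0.08. SNAP23, the paralog of SNAP25 that most cell types use, read 1730, 1409, 1452 and 967 against 1540, 1541, 1489 and 1490, a difference of 0.16 ± 0.17. Its 7-day-old arrays were nearly equal, and the 3-day-old arrays lay on both sides of them. The largest difference among SNAREs without a call was that of STX18, which serves the endoplasmic reticulum (0.30, adjusted p = 0.134).

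NSF is the ATPase that takes spent SNARE bundles apart so that they can be used again. Its intensity was 497, 496, 438 and 686 in the 3-day-old arrays and 901, 737, 654 and 926 in the 7-day-old arrays. The groups overlapped only through 3-day-old replicate 4 and 7-day-old replicate 3, and the difference of 0.61 ± 0.18 missed the threshold (adjusted p = 0.0678). Without 3-day-old replicate 4 it passed (0.74, adjusted p = 0.0347). Dimmer probe sets gave 0.35 and 0.07. NSFL1C, a cofactor of the related ATPase p97, had a difference of -0.08.

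The 3 tested genes of calcium sensing and priming passed limma's test, 1 upward and 2 downward, where 12.2% of all genes tested passed. The methods' t-test called 1 of the 3. SYT5, a synaptotagmin of dense-core granules, read 485, 476, 439 and 559 in the 3-day-old arrays and 793, 678, 660 and 726 in the 7-day-old arrays. The lowest 7-day-old value, 660, was above the highest 3-day-old value, 559, and the difference was 0.55 ± 0.11 (1.46-fold, adjusted p = 0.0214). SYT1, the calcium sensor of fast synaptic release in neurons, read 244, 484, 332 and 382 against 216, 140, 163 and 189. It was lower in all 7-day-old arrays, with a difference of -1.0 ± 0.23 (2.0-fold, adjusted p = 0.0342), but 3-day-old replicate 1 came close to 7-day-old replicate 1.

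UNC13D, a priming factor best known from cytotoxic lymphocytes and platelets, read 591, 587, 692 and 722 in the 3-day-old arrays and 458, 399, 435 and 543 in the 7-day-old arrays. The groups did not overlap and the difference was -0.50 ± 0.13 (adjusted p = 0.0458). SYT1 and UNC13D each lost the call in 7 of the 8 analyses that left out 1 array, and SYT5 in 6, with adjusted p up to 0.0865, 0.111 and 0.061. Neither SYT1 nor UNC13D passed the methods' t-test (adjusted p = 0.0584 and 0.0556). A dimmer probe set of SYT1, at the 20th percentile in only 1 array, gave -1.78 (adjusted p = 0.232 in limma). With the mean of both probe sets, the adjusted p of SYT1 in limma was 0.0891.

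**Figure D2:**
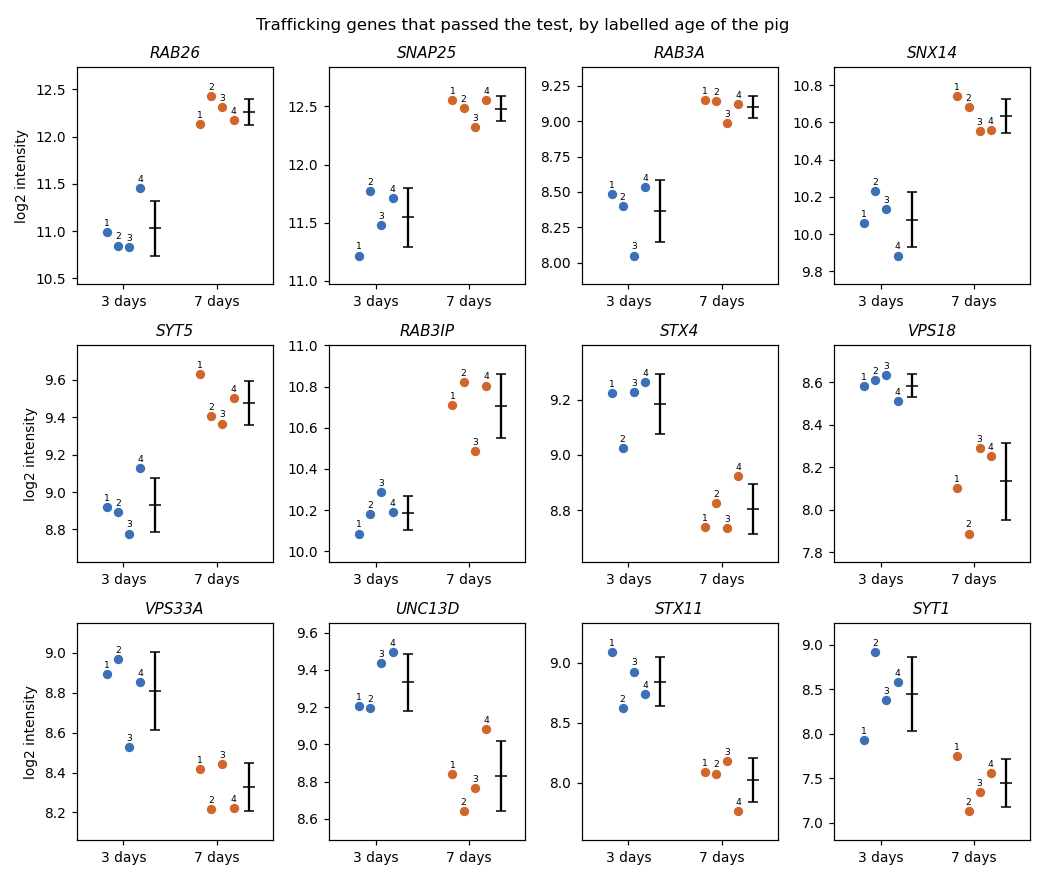
Log2 intensity (vertical axis) of the 12 trafficking genes that passed the test, by labelled age in days (horizontal axis), with 1 numbered point per array and black bars for mean and SD of 4 arrays. In each panel the 4 points of one label lie apart from the 4 of the other. The gap is wide for RAB26 and SNAP25 and narrow for VPS33A, STX4, UNC13D and SYT1.

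Rab GTPases mark the identity of a vesicle and recruit the motors and tethers that act on it. Of 26 tested, RAB26 and RAB3A were higher in islets labelled 7-day-old, none was lower, and the median difference was 0.00. At an unadjusted p under 0.05 in limma there were 8, and the methods' t-test called 4, RAB7A among them as lower. Of all 6540 genes tested, limma called 12.2%, 1953 had an unadjusted p under 0.05 and the methods' t-test called 818. RAB26, which resides on secretory granules, showed the largest difference of the 12 genes called. Its intensity was 2034, 1841, 1824 and 2806 in the 3-day-old arrays and 4479, 5508, 5080 and 4617 in the 7-day-old arrays. Even 3-day-old replicate 4, the brightest of its label, was far below the dimmest 7-day-old array. The means were 2126 ± 463 and 4921 ± 468 (SD, n = 4 each), which gave 1.23 ± 0.16 (2.34-fold, adjusted p = 0.0067).

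RAB3A sits on insulin granules and synaptic vesicles and acts in docking. It read 358, 338, 265 and 370 in the 3-day-old arrays and 568, 565, 508 and 558 in the 7-day-old arrays. No array crossed between the groups and the 7-day-old arrays lay close together, so that the difference was 0.73 ± 0.12 (1.66-fold, adjusted p = 0.0135). RAB3D, a close relative on granules of exocrine cells, read 2277, 1953, 1735 and 2286 against 2429, 2397, 2751 and 2450. These groups did not overlap either, but the difference of 0.29 ± 0.12 did not pass (adjusted p = 0.154).

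The remaining Rabs of granules and endosomes did not pass. RAB27B, which tethers granules at the cell cortex, was dim and variable (an interval of -0.96 to 0.43). RAB15, an endosomal Rab of neural tissue, read 159, 187, 168 and 119 in the 3-day-old arrays and 95.6, 128, 97 and 89.2 in the 7-day-old arrays. Only replicate 4 of the first and replicate 2 of the second crossed (-0.62, adjusted p = 0.0607), and it passed without 3-day-old replicate 4 (-0.75, adjusted p = 0.0314). RAB32, which acts at lysosome-related organelles, gave -0.47 (adjusted p = 0.174). RAB2A, of the Golgi, was higher in every 7-day-old array than in any 3-day-old one by a small amount (0.25, adjusted p = 0.0925), and RAB7A and RAB34, of late endosomes and the Golgi, were lower in the same sense (-0.20 and -0.34, adjusted p = 0.119 and 0.0741). At the other extreme, RAB1A, of endoplasmic reticulum to Golgi transport, differed by 0.01 with an interval of -0.15 to 0.18.

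Rab proteins are switched on by exchange factors and off by GTPase-activating proteins. RAB3IP (Rabin8), an exchange factor for RAB8, read 1087, 1160, 1251 and 1169 in the 3-day-old arrays and 1674, 1811, 1433 and 1789 in the 7-day-old arrays. All 7-day-old values were higher, by 0.52 ± 0.10 (1.43-fold, adjusted p = 0.0221), and the call was lost in 5 of the 8 analyses that left out 1 array (adjusted p up to 0.0649). RAB3GAP1 and RAB3GAP2 are the catalytic and the other subunit of the complex that inactivates RAB3. RAB3GAP2 read 1514, 1398, 1480 and 1681 against 1809, 1987, 1859 and 2151, with no overlap, and just missed the threshold (0.36 ± 0.10, adjusted p = 0.0544). RAB3GAP1 also did not overlap (0.30, adjusted p = 0.0972). RAB3IL1, an exchange factor related to RAB3IP, had an interval of -0.93 to 0.33. Among RAB3A, RAB3D, RAB3GAP1, RAB3GAP2, RAB3IL1 and RAB3IP, 2 were higher and none was lower, with a median difference of 0.33. Of all genes tested, 5.03% were higher and 7.16% lower.

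**Figure D3:**
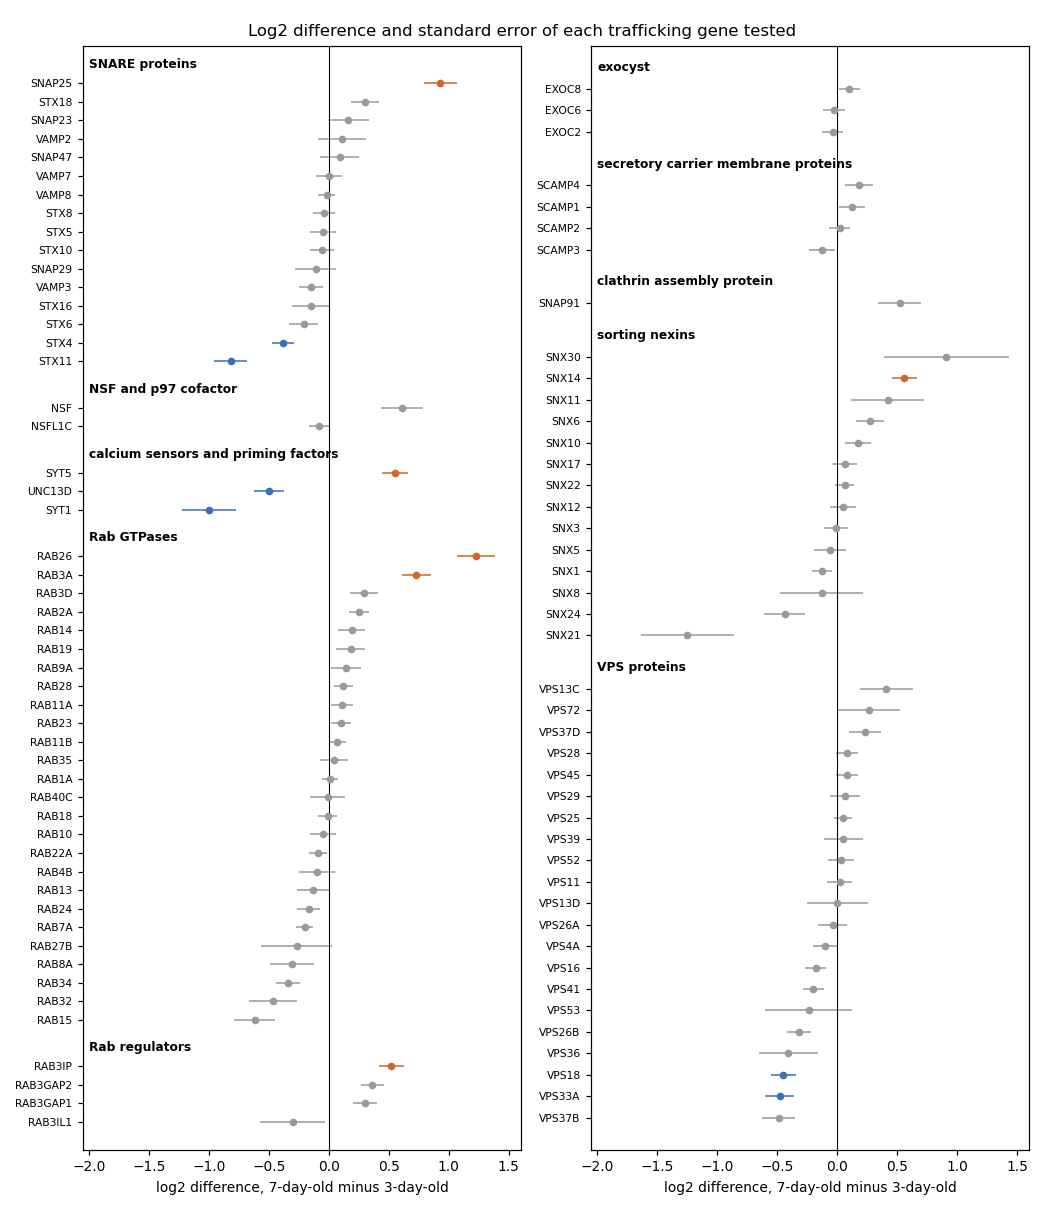
Log2 difference, 7-day-old minus 3-day-old (horizontal axis), with its standard error (bar) for each of the 94 trafficking genes tested, listed by role and sorted within it. Orange marks the 6 genes higher and blue the 6 lower at an adjusted p under 0.05, and grey points, which did not pass, include SNX21 at -1.25 and SNX30 at 0.91 with long error bars.

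The exocyst tethers vesicles at the plasma membrane. None of its 3 measured subunits passed limma's test, the methods' t-test or an unadjusted p of 0.05, and their intervals were narrow: EXOC2 lay between -0.24 and 0.16, EXOC6 between -0.25 and 0.18, and EXOC8 between -0.10 and 0.30. The 4 secretory carrier membrane proteins, which cycle between the Golgi, granules and the cell surface, did not pass by any of these measures either, with differences from -0.13 (SCAMP3) to 0.18 (SCAMP4). SNAP91, which despite its symbol is the neuronal clathrin assembly protein AP180 and not a SNARE, read 319, 355, 351 and 466 against 472, 520, 450 and 700. Only 3-day-old replicate 4 and 7-day-old replicate 3 overlapped, and the difference of 0.52 ± 0.18 did not pass (adjusted p = 0.107).

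Sorting nexins bind phosphoinositides on endosomes and direct cargo to its destination. SNX14 also carries a domain that binds G proteins and is placed at the endoplasmic reticulum and its contacts with lipid droplets. It was the only one of 14 to pass (7.14%, against 12.2% of all genes tested). It read 1067, 1202, 1124 and 945 in the 3-day-old arrays and 1711, 1642, 1504 and 1508 in the 7-day-old arrays. The 2 sets of values were clearly separate (0.56 ± 0.10, 1.47-fold, adjusted p = 0.0179), and the call was lost without 7-day-old replicate 1 or 2 (adjusted p = 0.0525 and 0.0556). A dimmer probe set of the gene had a difference of 0.72 with overlapping arrays (adjusted p = 0.0906).

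SNX21 had the lowest difference of any trafficking gene, -1.25, without passing. It read 236, 170, 185 and 153 in the 3-day-old arrays and 34.1, 103, 80.4 and 124 in the 7-day-old arrays. The groups did not overlap, but the 7-day-old values spread over a wide range (SD 0.82 log2 units, adjusted p = 0.0837). SNX30, at 0.91, had 3-day-old values from 14.6 to 91.3 that enclosed most of the 7-day-old ones (adjusted p = 0.308), and SNX24 gave -0.44 (adjusted p = 0.142).

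VPS proteins, named after yeast genes of vacuolar protein sorting, make up the complexes that serve endosomes and lysosomes. Of 21 tested, VPS18 and VPS33A were lower in islets labelled 7-day-old and none was higher (9.52% called, against 12.2% of all genes tested). The median difference was 0.00. VPS18 and VPS33A belong to the shared core of HOPS and CORVET, which tether endosomes and lysosomes to each other before SNAREs fuse them. VPS18 read 383, 391, 398 and 365 in the 3-day-old arrays and 275, 237, 313 and 305 in the 7-day-old arrays. The 3-day-old values were tight and all above the others (-0.45 ± 0.11, adjusted p = 0.0377). VPS33A, the Sec1/Munc18-type subunit that holds the SNAREs, read 475, 501, 369 and 462 against 342, 298, 348 and 299, with 3-day-old replicate 3 close to the 7-day-old range (-0.48 ± 0.12, adjusted p = 0.0459).

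The other core subunits did not pass: VPS11 differed by 0.02 and VPS16 by -0.18 (adjusted p = 0.941 and 0.225). VPS41 and VPS39, which join the core in HOPS, gave -0.20 and 0.05. Over the 6 subunits the median was -0.19, with 2 lower and none higher, where 7.16% of all genes tested were lower and 5.03% higher. The methods' t-test called 1 of the 6. Each of VPS18 and VPS33A lost its call in 7 of the 8 analyses without 1 array (adjusted p up to 0.0942 and 0.115). VPS33A also did not pass the methods' t-test (adjusted p = 0.0534). A dimmer probe set of VPS18 gave -0.03, and with the mean of both its adjusted p was 0.475.

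Of the ESCRT subunits, which sort membrane proteins into multivesicular bodies, none of 6 passed (1 at an unadjusted p under 0.05 in limma, 0 in the methods' t-test). VPS37B came nearest, with 698, 807, 684 and 684 in the 3-day-old arrays and 534, 490, 628 and 414 in the 7-day-old arrays. The groups did not overlap (-0.49 ± 0.14, adjusted p = 0.0656). The 3 retromer subunits, which return cargo from endosomes to the Golgi, ranged from -0.32 (VPS26B, adjusted p = 0.0853) to 0.06 (VPS29). VPS13C, a lipid transfer protein at membrane contacts, had the highest difference of the VPS genes, 0.41, with overlapping arrays (adjusted p = 0.268). VPS72, which shares the prefix but is a chromatin remodelling subunit, gave 0.26 (adjusted p = 0.576).

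For 41 of the genes more than 1 probe set was present, and the 95 genes had 149 in all. Of the 146 tested, 13 passed, the 12 described above and a dimmer one of RAB19, a share near the 10.7% of all probe sets. That probe set read 90.5, 83.2, 86.9 and 97.1 in the 3-day-old arrays and 131, 131, 113 and 123 in the 7-day-old arrays (0.47 ± 0.09, adjusted p = 0.0202), while the brighter one gave 0.18 (adjusted p = 0.374). RAB1A differed among its probe sets in the same way: the brightest gave 0.01, and the dimmer ones 0.59 and 0.49, both without overlap (adjusted p = 0.0538 and 0.0656). For RAB3D the dimmer probe sets, near the bottom of the array, gave 0.55 and -1.45, each with a standard error above 0.8. What part of a transcript each probe set reads was not examined here.

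**Figure D4:**
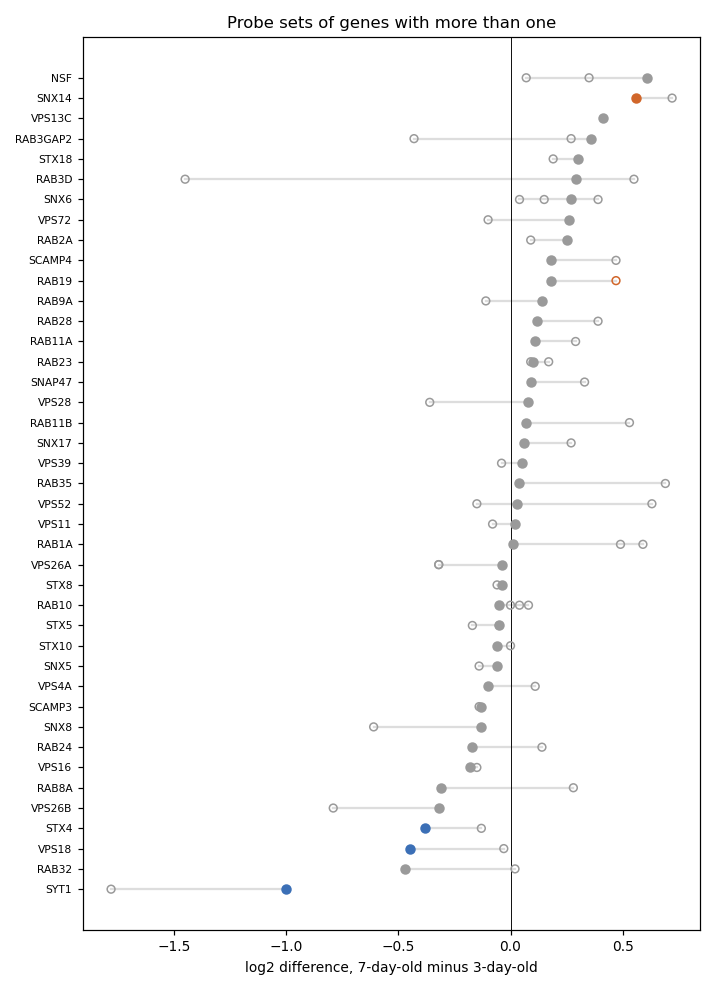
Log2 difference, 7-day-old minus 3-day-old (horizontal axis), of every tested probe set of the 41 genes with more than 1, with filled circles for the brightest, which stood for the gene, and open circles for the others. Orange and blue mark an adjusted p under 0.05, as for the dimmer probe set of RAB19 (0.47), and VPS18 and STX4 have a second probe set nearer 0 than the one called.

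Pairs of related genes were compared within each array, where a scaling error of the array cancels. The 5 pairs were chosen after the values above were seen, so the tests describe them and add no independent evidence. Each used an exact permutation test of the log2 ratio (two-sided), whose smallest p with 4 against 4 arrays is 0.0286, and p was adjusted over the 5 pairs. The ratio of SYT5 to SYT1 was higher in every 7-day-old array (1.88 to 2.27, against -0.02 to 0.99 in 3-day-old arrays), a change of 1.55 (exact p = 0.0286, adjusted 0.0476). The ratio of RAB3A to RAB3D rose by 0.45 (exact p = 0.0286, adjusted 0.0476), and that of VPS18 to VPS11 fell by 0.47 with the same p-values. SNAP25 over SNAP23 changed by 0.78, with ratios that met at 1.79 (exact p = 0.0571, adjusted 0.0714). VPS33A over VPS16 changed by -0.30 (exact p = 0.114, adjusted 0.114).

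Of 36 genes of the core insulin granule fusion machinery, 12 had a probe set with a symbol of their own, and the rest, among them STX1A, SYT7, RAB27A and the complexins, were not analysed here. Of the 12, 3 were higher (SNAP25, RAB3A and SYT5), 2 were lower (STX4 and UNC13D) and 7 did not pass (NSF, RAB3D, RAB27B, SNAP23, VAMP2, VAMP3 and VAMP8), beside 5.03% higher and 7.16% lower of all genes. The steadiest calls among all trafficking genes were those of RAB26, SNAP25, RAB3A and STX11, which passed in each of the 8 analyses without 1 array, with adjusted p up to 0.0244, 0.0339, 0.0434 and 0.0463. All 12 called genes kept their direction without 7-day-old replicates 3 and 4, the arrays at the ends of the second component, but none passed there: RAB26 was nearest (1.25, adjusted p = 0.0559), followed by RAB3IP (0.58, adjusted p = 0.0604), and in that limma analysis 19 of the 94 genes had an unadjusted p under 0.05, against 27 with all arrays.

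Genes of the same routes with other symbols were taken from lists of 227 genes, of which 120 were tested. Of these, 4 were higher and 3 lower (5.83% called, against 12.2% of all genes), with a median difference of 0.01, and -0.02 for all genes. SEC24D, a COPII coat protein that loads cargo for export from the endoplasmic reticulum, read 396, 251, 281 and 378 in the 3-day-old arrays and 598, 619, 594 and 620 in the 7-day-old arrays. Its 7-day-old values were nearly equal and far above the others (0.92 ± 0.16, adjusted p = 0.0146). The others higher were ARF5, a GTPase of Golgi coat assembly (0.79, adjusted p = 0.0188), ICA1, an islet autoantigen on Golgi and granule membranes (0.55, adjusted p = 0.0495), and MYO5A, a myosin motor that carries granules along actin (0.46, adjusted p = 0.0171). Lower were COPZ2, a COPI coat subunit (-0.72, adjusted p = 0.0279), PDCD6IP (ALIX), a partner of ESCRT (-0.57, adjusted p = 0.0489), and RALB, a GTPase that engages the exocyst (-0.56, adjusted p = 0.0125).

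By list, 1 of 17 COPII genes was higher (median 0.12), 1 was higher and 1 lower of 24 COPI and related genes (0.03), 1 higher and 1 lower of 14 release site and Rab effector genes (-0.03), 1 higher of 4 granule membrane genes (-0.12) and 1 lower of 10 other ESCRT genes (-0.04). None passed limma's test among 12 other SNARE genes (-0.02), 19 genes of clathrin, its adaptors and dynamins (-0.07) and 20 Golgi tethers (0.11). At an unadjusted p under 0.05 these lists held 2, 1 and 2, and the methods' t-test called 1, 0 and 0.

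Marker genes of the cell types in such preparations differed between the labels as well. For the counts by list that follow, the shares of all genes tested were 5.03% higher and 7.16% lower. Of 14 endocrine markers tested, 7 were higher in islets labelled 7-day-old and none was lower, with a summed intensity of 151574 to 193564 in 3-day-old arrays and of 183571 to 223233 in 7-day-old arrays. INS and GCG did not pass (-0.07 and -0.19), and those higher included SCG3, PCSK2 and CHGB, proteins of the granule itself (1.05, 1.11 and 0.70). The 6 trafficking genes called higher, RAB26, SNAP25, RAB3A, SNX14, SYT5 and RAB3IP, were named by the same comparison of labels. That they go the same way as these markers is fixed by that choice and says nothing about their cell of origin.

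Markers of fibroblasts and stellate cells were lower in islets labelled 7-day-old for 8 of 15 genes (summed intensity 65480 to 85050 against 47323 to 53818), those of endothelial cells for 5 of 12 (2240 to 2734 against 1206 to 1494) and those of pericytes and smooth muscle for 3 of 7 (3162 to 4165 against 1925 to 2332). None of these lists had a gene that was higher. The 6 trafficking genes called lower, SYT1, STX11, UNC13D, VPS33A, VPS18 and STX4, were named by the same comparison of labels. Their shared direction with these lists is fixed by that choice and says nothing about their cell of origin. Duct markers were lower for 2 of 10 genes (71350 to 78866 against 63859 to 68460), and acinar markers for 1 of 6, with summed ranges that overlapped. For macrophages and leukocytes, in which STX11 and UNC13D are best known, 1 of 10, TYROBP, was lower. The methods' t-test called none of them. ITGAM, ITGB2 and SPI1 had positive differences (0.72, 0.54 and 0.06, adjusted p = 0.685, 0.0512 and 0.956 in limma), and 7 were negative. The summed ranges overlapped (695 to 1701 against 587 to 817), and the upper end was 3-day-old replicate 1 alone. There STX11 was at its highest, 544, whereas UNC13D read 591, near its lowest 3-day-old value, 587. Whether either gene follows the leukocyte sum from array to array was not tested.

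Markers of neurons, the cells in which SYT1 is best known, went both ways. Of 9 markers of neurons and Schwann cells, NEFL, STMN2, GAP43 and S100B were lower (-1.53, -1.52, -1.03 and -0.67) and ELAVL4, also made by endocrine cells, was higher (0.75). The others did not pass (UCHL1 0.34, MBP 0.28, SOX10 0.13 and NCAM1 -0.19), and the median of the list was -0.19. The summed ranges overlapped (9418 to 13608 against 8843 to 10457). UCHL1, the brightest of the 9, supplied a large part of each sum (means 4230 in 3-day-old and 5321 in 7-day-old arrays). The overlap of the sums therefore says little about the dimmer markers. In the 3-day-old arrays the sums were 9418, 13608, 10223 and 9838, where SYT1 read 244, 484, 332 and 382. In the 7-day-old arrays they were 10457, 9016, 8843 and 10345, where it read 216, 140, 163 and 189. Whether the sum and SYT1 vary together from array to array was not tested. The part of any of these cell types in the differences of the trafficking genes was not tested.

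**Figure D5:**
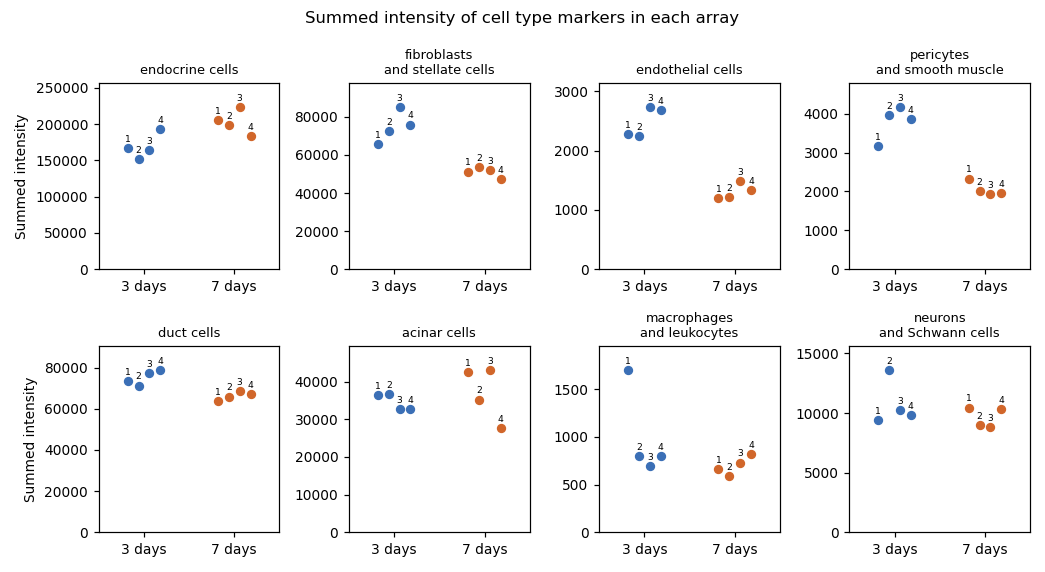
Summed intensity (vertical axis, from 0) of the marker genes of 8 cell types in each array, by labelled age in days (horizontal axis), with 1 numbered point per array. Fibroblast, endothelial, pericyte and duct sums are lower in all 4 arrays labelled 7-day-old, and the endocrine sums overlap. Each sum follows its brightest genes and says little about dimmer markers. In the endocrine list these include INS, GCG, SST and PPY, none of them called, and in the acinar list CPA1.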

How the data were processed

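The authors deposited linear intensities, 1 per probe set and array, already scaled to a common trimmed mean (500.1 after leaving out 2% at each end), with no summarising software named in the sources used here. Age and replicate number came from the deposited labels. Intensities below 1 were set to 1 (1528 values) and put on the log2 scale. Probe sets at the array's 20th percentile or above in at least 1 array were tested, 21574 of 23999 without controls. Symbols came from the platform annotation, which gave 10069 probe sets 1 symbol, 198 several and 13732 none. Those with several name no gene here (5 met the symbol rule). The labels were compared by limma 3.58.1 in R 4.3.3 (lmFit, eBayes, two-sided, no covariates), and by exact permutation for ratios (Python 3.11.15, numpy 2.4.6). Confidence intervals used scipy 1.17.1. The trafficking genes and the lists were chosen with earlier results of these data known. Named were all genes called, up to 4 per role by size, and the core fusion genes. The script was tested on simulated data. No 2 arrays shared over 1 identical value. Replicate numbers did not pair the arrays (correlations of residuals from -0.0135 to 0.00487). Alternatives were no filter, a stricter filter (50th percentile in 4 arrays), the methods' t-test, an intensity trend with robust variances, median centring, quantile normalization, array weights, the replicate block, an offset of 16, 1 array or 7-day-old replicates 3 and 4 left out, and the mean of all probe sets of a gene.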

Additional observations from a re-analysis of the deposited data

Results flagged for a closer look

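In 6 of 78 groups of 4 arrays examined for the named genes, 1 array stood apart from the other 3 by more than Dixon's critical value allows, a limit that chance passes in about 1 in 20 groups. NSFL1C read 1285 in 7-day-old replicate 1 (the others 1080 to 1109). RAB32 read 1464 in 3-day-old replicate 4 (977 to 1034). RAB3A read 508 in 7-day-old replicate 3 (558 to 568), and RAB3D read 2751 in the same array (2397 to 2450). STX4 read 521 in 3-day-old replicate 2 (598 to 614), and VPS37B read 807 in that array (684 to 698).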

How the results depend on the processing

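None of the 12 called trafficking genes changed sign under any alternative run. With all arrays and the settings described, 2305 probe sets, 6 trafficking genes higher, 6 lower and 7 other trafficking genes were called. With no filter 3 trafficking genes were lower, without STX4, UNC13D and VPS33A. With the stricter filter 11 were higher and 11 other trafficking genes were called. With an intensity trend and robust variances the counts were 3491 probe sets, 11 higher, 10 lower and 11 others. With each gene averaged over its probe sets 11 others were called. The replicate block left 0 calls of each kind in limma (5264 probe sets, 24 trafficking genes and 18 others at an unadjusted p under 0.05), with adjusted p of 0.0604 for RAB3A, 0.0607 for RAB26 and 0.062 for SNAP25 and STX11. Without 7-day-old replicates 3 and 4, chosen after seeing the data, 488 probe sets and 0 trafficking genes of any kind were called (4928, 19 and 17 at an unadjusted p under 0.05), where the methods' t-test on all arrays called 8 higher, 4 lower and 9 others. Leaving out 1 array gave 1008 to 1854 probe sets, 3 to 7 higher, 1 to 3 lower and 3 to 9 others. The fewest higher came without 7-day-old replicate 1 or 2, and 1 lower remained without either of these or 3-day-old replicate 2. Centring, quantile normalization, array weights and the offset kept all counts within 1.5 times, and centring or quantile normalization moved the median of all probe sets by at most 0.014. NSF, RAB2A, RAB3GAP1, RAB3GAP2, SNAP91 and VPS37B were called with the stricter filter and with the trend. Signal was at the 20th percentile or above in all 8 arrays for every gene of the naming rule but SNX30.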
